A study of Mus musculus with 16 samples.

Results

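The 9 genes described here are receptors and a signalling kinase known from itch-sensing neurons: Mrgpra3, Osmr, Htr1f, Cysltr2, Npy2r, F2rl3, Ptafr, Hrh1 and Jak1. They were picked by name and not by a threshold on measured values, with earlier results of these data known, from the 22609 genes in the files, and all 9 were among the 14200 genes that passed a filter on low counts. The filter can be passed through high counts in a single group. RNA came from cells of the L3 to L5 dorsal root ganglia (male mice, 8 to 16 weeks old), after sorting for a fluorescent wheat germ agglutinin that had been injected into the paw. Paclitaxel (PTX), a microtubule-stabilising chemotherapy drug that can cause painful neuropathy, had been given intraperitoneally 3 times at 6 mg per kg. The tracer was injected 16 days after the last injection and the ganglia were taken at 18 days. All mice carried LTbR-fl/fl, floxed alleles of Ltbr, which encodes lymphotoxin-beta receptor. There were 4 groups of 4 libraries: PTX with Nav1.8/LTbR CKO (PTX CKO), PTX with the floxed alleles alone (PTX fl/fl), vehicle with Nav1.8/LTbR CKO (vehicle CKO) and vehicle with the floxed alleles alone (vehicle fl/fl). The design text gives 3 per group while the labels place 4 libraries in each; all were used, so n = 4 counts libraries. In the CKO the Cre recombinase is driven by Nav1.8, a sodium channel of nociceptors whose gene is Scn10a, so cells without Nav1.8 should keep the receptor. The vehicle is water in the treatment label, although the treatment text attached to those libraries describes PTX.

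Itch neurons are small sensory neurons of the ganglia that respond to pruritogens released in the skin. In single-cell surveys of mouse ganglia, 1 class is marked by Mrgpra3, the receptor for chloroquine, and another by the peptides Nppb and Sst, together with Osmr, Il31ra, Htr1f and Cysltr2. Osmr pairs with Il31ra to bind interleukin-31, and with Il6st to bind oncostatin M, and these receptors signal through Janus kinases, among them Jak1. Hrh1 senses histamine, Cysltr2 cysteinyl leukotrienes, Htr1f serotonin, Npy2r neuropeptide Y, Ptafr platelet-activating factor, and F2rl3 is the thrombin-activated receptor PAR4. Ptafr is also well known from neutrophils and macrophages, and Jak1 is made by nearly all cells.

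Libraries held 7906504 to 11668007 gene counts. Levels are CPM, counts scaled to a common library size, so a level of 1 gene can be set against that of another only if their lengths are taken into account, which is not done here. Titles carry dates: replicates 1 and 2 of the PTX groups have the earlier and replicates 3 and 4 the later of a pair of September dates, and the vehicle groups are split in the same way over a pair of October dates. What the dates mark is not stated. Treatment and date therefore cannot be told apart, while each date holds 2 libraries of each genotype. No label states that a group's libraries are from different animals, so p-values measure spread between libraries that may be technical. As groups the CKO libraries did not hold less Ltbr. Its log2 fold change against fl/fl was 0.86 ± 0.51 (SE) under PTX and 0.21 ± 0.50 under vehicle (edgeR adjusted p = 1 in both). On the earlier vehicle date both CKO libraries were higher (54.3 and 99.0 against 42.4 and 51.4 CPM). On the later one both were lower (32.3 and 33.1 against 46.8 and 48.3 CPM). Under PTX both were higher on the later date, and the genotypes overlapped on the earlier date. The floxed exons are not named and counts span all exons, so CKO below means libraries that carry the label. The sorted cells carried neuronal and nociceptor markers in all 16 libraries, but at low shares. The 16 pan-neuronal markers made up 0.848% to 2.26% of counts in PTX CKO, 1.14% to 2.17% in PTX fl/fl, 0.131% to 0.368% in vehicle CKO and 0.0896% to 0.708% in vehicle fl/fl. The 12 neutrophil markers, led by S100a8 and S100a9, made up 0.0315% to 11.9%, 0.560% to 10.4%, 7.55% to 19.0% and 8.38% to 18.1% in the same 4 groups, and no marker of either list was at 0 in any group. Within PTX, the earlier date had the higher neuronal shares and the lower neutrophil shares in both genotypes.

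The upstream sequences of Osmr, Ptafr and Jak1 are shown because these 3 members had counts in all 16 libraries and differ in pattern: Osmr was higher after PTX, Ptafr was lowest on the earlier PTX date, and Jak1 was near level. Each run is the 250 bases before the RefSeq start of the gene (assembly GRCm38.p6, while the counts were made on mm9), read 5′ to 3′ on the gene's strand, with CpG dinucleotides in capitals. The windows are chr15:6874314-6874563 on the minus strand for Osmr, chr4:132563817-132564066 on the plus strand for Ptafr and chr4:101265224-101265473 on the minus strand for Jak1.
Osmr: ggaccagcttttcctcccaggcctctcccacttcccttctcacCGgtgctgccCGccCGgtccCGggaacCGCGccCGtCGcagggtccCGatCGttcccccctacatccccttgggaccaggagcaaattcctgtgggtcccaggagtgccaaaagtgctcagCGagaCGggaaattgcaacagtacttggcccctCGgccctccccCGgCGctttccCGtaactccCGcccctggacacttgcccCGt
Ptafr: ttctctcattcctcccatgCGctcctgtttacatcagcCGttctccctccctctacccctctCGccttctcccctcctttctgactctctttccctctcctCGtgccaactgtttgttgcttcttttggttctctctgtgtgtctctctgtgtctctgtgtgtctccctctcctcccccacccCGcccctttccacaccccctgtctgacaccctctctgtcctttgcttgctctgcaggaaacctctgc
Jak1: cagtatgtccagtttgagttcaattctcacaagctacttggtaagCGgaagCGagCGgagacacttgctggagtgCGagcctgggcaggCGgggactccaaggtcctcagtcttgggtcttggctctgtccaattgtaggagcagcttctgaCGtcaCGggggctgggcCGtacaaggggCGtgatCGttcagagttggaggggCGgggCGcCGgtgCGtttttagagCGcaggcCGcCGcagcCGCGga
The Osmr run holds 18 CpG, more than 78.3% of 32851 such windows, and the Jak1 run holds 19, more than 80.3%. Ptafr has 5, near the median of 6 over all windows (quartiles 2 and 16). Of the 9 members 8 had an entry, with 11 windows in all. Windows of 300 bases (the 250 and the first 50 after the start) were searched on both strands for a STAT site (TTCNNNGAA), a RUNX site (TGTGGT), a PU.1 site (GAGGAAGT) and the NF-kB consensus. These letters occur in 8.3%, 16.8%, 3.2% and 8.46% of all 32851 windows, and among the 11 windows of the members the only match was the NF-kB consensus in 1 of the 4 windows of Hrh1.

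The genotype comparison under PTX sets libraries labelled Nav1.8/LTbR CKO against libraries with the floxed alleles alone. The 9 fitted fold changes were all below 0 (PTX CKO over PTX fl/fl), with a median log2 value of -1.15. The median was -0.04 over all 14200 genes, of which 53.4% were below 0. Neuronal genes also leaned this way: 2 of 16 pan-neuronal markers (median -0.27) and 1 of 12 nociceptor markers (-0.31) had a fold change above 0. None of the 9 passed the threshold of 0.05 after adjustment over all genes, and the same holds for the whole table, where 0% of 14200 genes were called by edgeR's quasi-likelihood test. At an unadjusted p under 0.05 edgeR counted 0 members and 266 genes (1.87%). DESeq2 counted 0 members and 432 genes, and limma-voom 2 members and 987 genes, of the same 14200. After adjustment DESeq2 and limma-voom also called 0 members. The libraries of the 2 genotypes overlapped for each of the 9, while 2.06% of all genes had groups that did not overlap.

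Osmr showed the smallest p of the members. It stood at 77.1, 126, 53.8 and 22.8 CPM in replicates 1 to 4 of PTX CKO. In PTX fl/fl it stood at 239, 184, 186 and 86.6 CPM. The lowest PTX fl/fl library lay below the highest PTX CKO library, so the groups overlapped. On each date both PTX CKO libraries lay below both PTX fl/fl libraries. The share of all genes with this pattern by date was not counted, so it does not set Osmr apart. The mean was 69.98 ± 43.6 CPM in PTX CKO and 173.9 ± 63.7 CPM in PTX fl/fl (SD, n = 4 each). The log2 fold change was -1.31 ± 0.66 (SE), with an edgeR p of 0.0619 and an adjusted p of 1, and an exact two-sided permutation test over 70 assignments gave p = 0.0571, where 0.0286 is the smallest that 4 against 4 libraries can give. Within dates the fitted log2 fold change was -0.98 on the earlier and -1.80 on the later date, and over all alternative fits it stayed between -1.80 and -0.98 and was not called in any of them. In such mixed samples, fewer cells of a type and less RNA per cell cannot be told apart.

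**Figure D1:**
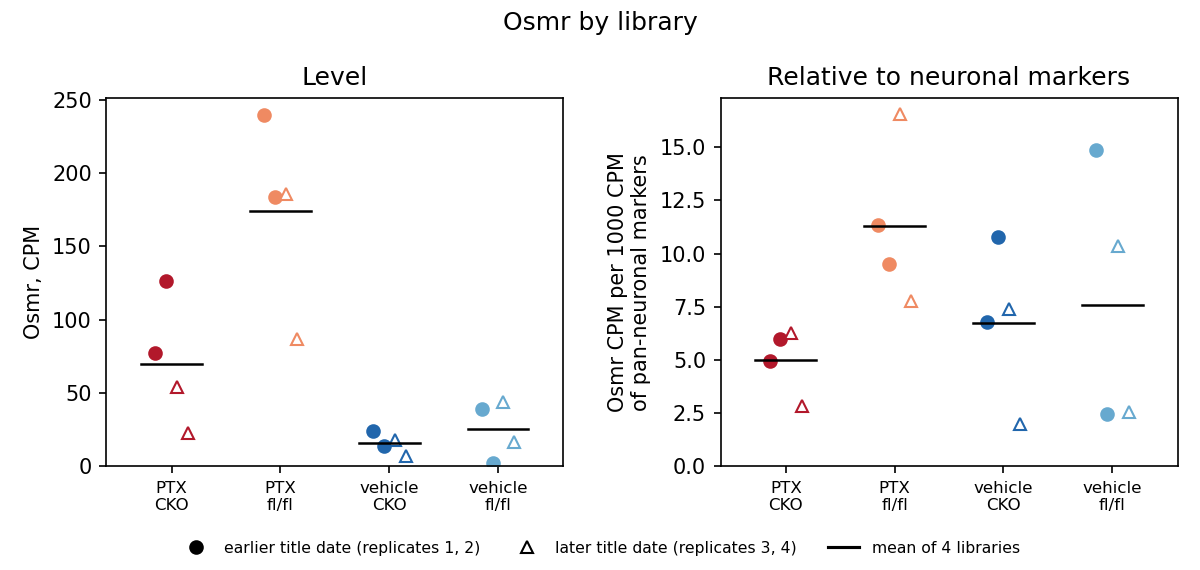
Osmr in the 16 libraries: CPM (left) and CPM per 1000 CPM of 16 pan-neuronal markers (right), with 1 point per library, filled for the earlier and open for the later date, and a bar for the mean of 4 libraries. On the left all 4 PTX fl/fl libraries lie above all vehicle libraries and overlap with PTX CKO; on the right all 4 PTX CKO libraries lie below all 4 PTX fl/fl libraries.

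Because the neuronal share differed between libraries, Osmr was also set against the summed CPM of the 16 pan-neuronal markers, a scale chosen after seeing the data. Per 1000 CPM of these markers, Osmr stood at 4.93, 6.01, 6.27 and 2.85 CPM in PTX CKO. The PTX fl/fl libraries gave 11.4, 9.49, 16.6 and 7.78 CPM. On this scale the groups did not overlap, beside 0.556% of all genes that were lower without overlap on the same scale. The log2 difference was -1.16 (exact permutation p = 0.0286, the smallest possible), taken after adding 1 to the CPM of Osmr. The ratios printed above have nothing added. Per CPM of Scn10a in place of these markers, the log2 difference was -1.12 and the groups overlapped (exact permutation p = 0.0857). Of the other 8 members none had groups that did not overlap on either scale in this comparison. Markers of satellite glia, which wrap the neurons, made up 1.02% to 2.97% of counts in PTX CKO and 0.482% to 1.68% in PTX fl/fl. All 10 of them had a fold change above 0 and none was called, no marker was at 0 in either group, and their part in the Osmr values was not tested.

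The receptors Mrgpra3, Npy2r and Htr1f had lower means in PTX CKO than in PTX fl/fl, with wide spreads between libraries. Mrgpra3 stood at 75.7, 40.7, 0.206 and 0 CPM in PTX CKO. In PTX fl/fl it stood at 84.0, 66.1, 2.96 and 0.203 CPM. In both genotypes the 2 libraries of the earlier date were high and those of the later date near 0, and the genotypes overlapped. Each PTX CKO library lay below the PTX fl/fl library of the same number. By genotype the log2 fold change was -0.39 ± 1.84 (SE, edgeR adjusted p = 1), and -1.53 ± 1.41 with the replicate number as a block (adjusted p = 1). It turned to 0.34 without replicate 1 of PTX fl/fl. Of the 50-base stretches of the Mrgpra3 transcript, 7.14% also occur in transcripts of 4 other genes, most of them in its close relative Mrgpra4, and reads from those stretches cannot be told apart between the genes.

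Npy2r stood at 8.27, 14.05, 6.91 and 20.4 CPM in PTX CKO. In PTX fl/fl it stood at 42.0, 21.0, 61.9 and 0 CPM. The PTX fl/fl group held the 3 highest libraries and also the only PTX library at 0, replicate 4. The log2 fold change was -1.33 ± 1.67 (edgeR adjusted p = 1) and -0.76 without replicate 3 of PTX fl/fl. Htr1f stood at 0.886, 0.475, 7.73 and 0 CPM in PTX CKO, against 14.03, 5.27, 18.7 and 1.22 CPM in PTX fl/fl. Its PTX fl/fl libraries lay above 3 of the 4 PTX CKO libraries, and replicate 3 of PTX CKO lay among them. The log2 fold change was -2.10 ± 1.61 (edgeR adjusted p = 1), with an exact permutation p of 0.114. Without replicate 3 of PTX CKO it was -4.39, also not called.

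Cysltr2, F2rl3 and Hrh1 were scarce and were at 0 in at least 1 library of each of the 2 groups, Cysltr2 in PTX fl/fl excepted. Cysltr2 stood at 2.26, 3.70, 0 and 5.37 CPM in PTX CKO, against 17.8, 5.45, 13.99 and 0.102 CPM in PTX fl/fl, a log2 fold change of -1.72 ± 1.86. F2rl3 stood at 0.295, 1.803, 1.55 and 0 CPM in PTX CKO, against 1.83, 1.32, 4.60 and 0 CPM in PTX fl/fl, a log2 fold change of -1.07 ± 2.02 that was -0.20 without replicate 3 of PTX fl/fl. The groups of these 2 receptors overlapped, and the later date gave both the highest and the lowest PTX fl/fl value of F2rl3. Hrh1 stood at 0, 8.54, 0.103 and 0 CPM in PTX CKO, against 9.47, 9.76, 0 and 0 CPM in PTX fl/fl. The PTX libraries with more than 1 count of this histamine receptor all belonged to the earlier date. Its log2 fold change was -1.15 ± 2.42, and -6.67 without replicate 2 of PTX CKO, and the edgeR adjusted p was 1 for all 3 genes. For F2rl3, 8.22% of its 50-base transcript stretches also occur in 1 other annotated gene, Gm29705.

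Ptafr and Jak1 were spread over dates and libraries rather than over genotypes. Ptafr stood at 0.295, 2.85, 38.0 and 47.4 CPM in PTX CKO. In PTX fl/fl it stood at 2.66, 5.54, 55.6 and 43.4 CPM. In each genotype the libraries of the later date were high and those of the earlier date low, the reverse of Mrgpra3, and the genotype log2 fold change was -0.28 ± 1.03 (edgeR adjusted p = 1). The neutrophil markers moved with it: they made up 0.0315%, 0.0987%, 11.9% and 6.77% of counts in PTX CKO and 0.560%, 1.05%, 10.4% and 5.48% in PTX fl/fl. The macrophage markers, led by Aif1 and C1qa, made up 0.00718% to 0.508% in PTX CKO and 0.0349% to 0.527% in PTX fl/fl, also higher on the later date, and the part of these cells in the Ptafr values was not tested. Jak1 stood at 199.9, 202, 242 and 235 CPM in PTX CKO, against 323, 254, 374 and 181 CPM in PTX fl/fl, with a log2 fold change of -0.37 ± 0.30 (edgeR adjusted p = 1). The 4 PTX CKO libraries of this kinase lay within the range of the PTX fl/fl libraries.

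**Figure D2:**
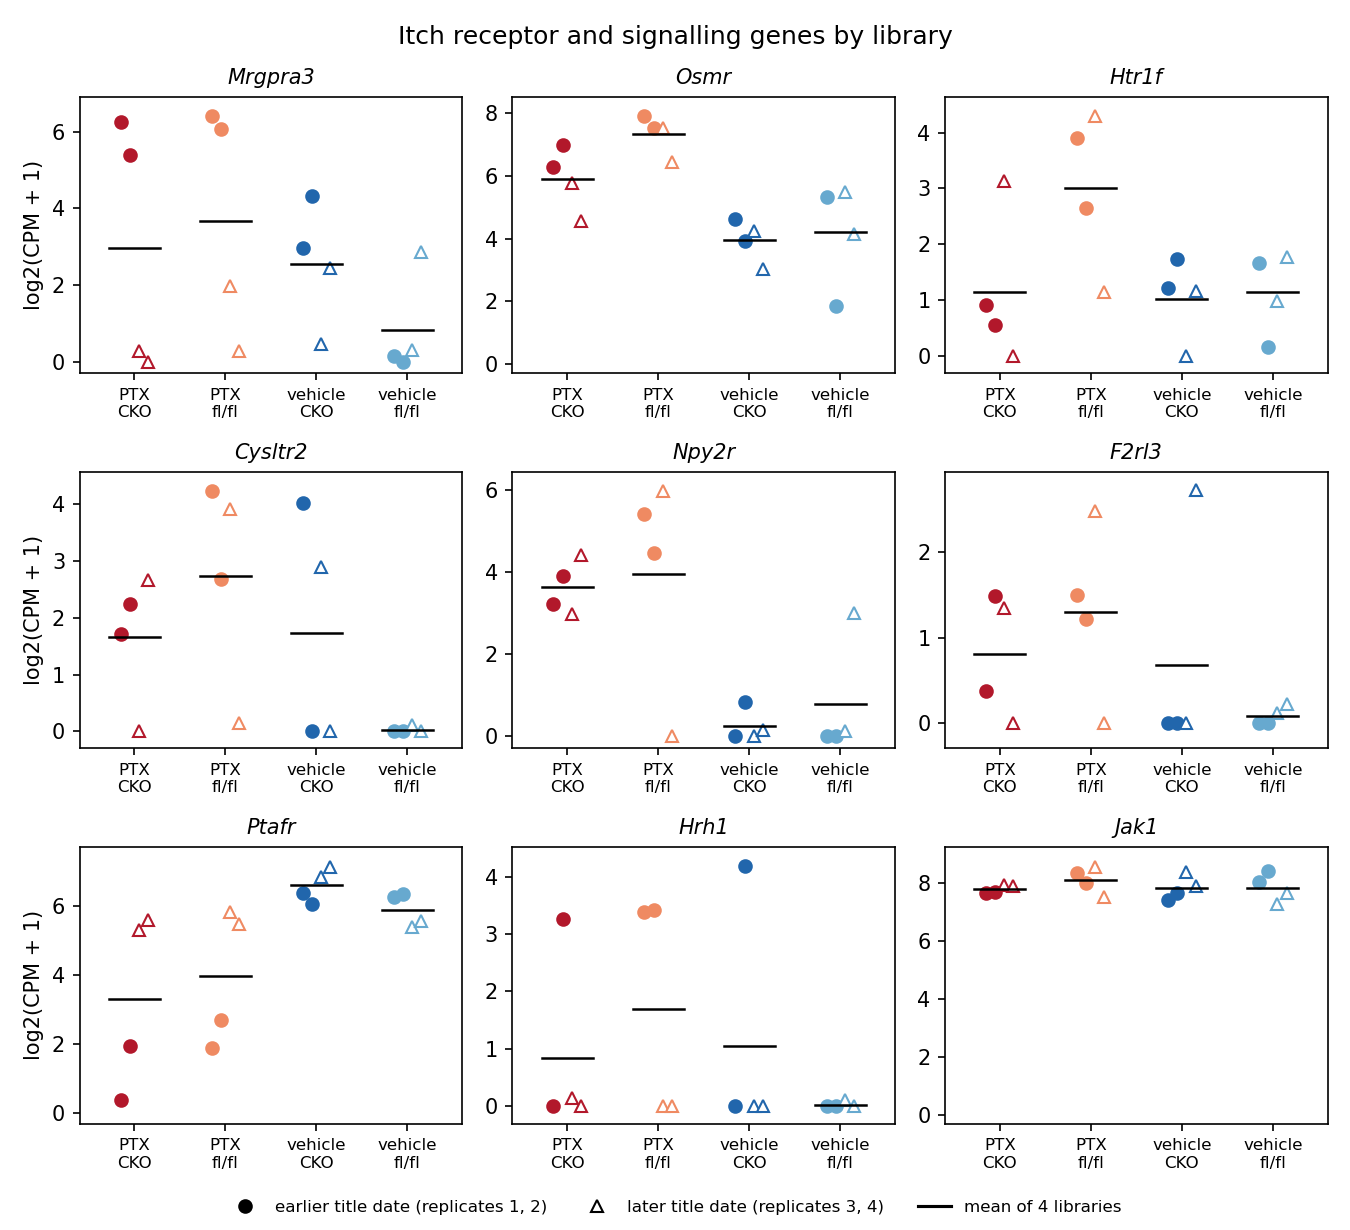
Levels of the 9 members, log2(CPM + 1) per library, by group from PTX CKO at the left to vehicle fl/fl at the right, filled for the earlier and open for the later date, with a bar for the mean of 4 libraries. Mrgpra3 is high and Ptafr low on the earlier PTX date in both genotypes, Osmr is highest in PTX fl/fl, and Jak1 stays near the same level in all groups.

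**Figure D3:**
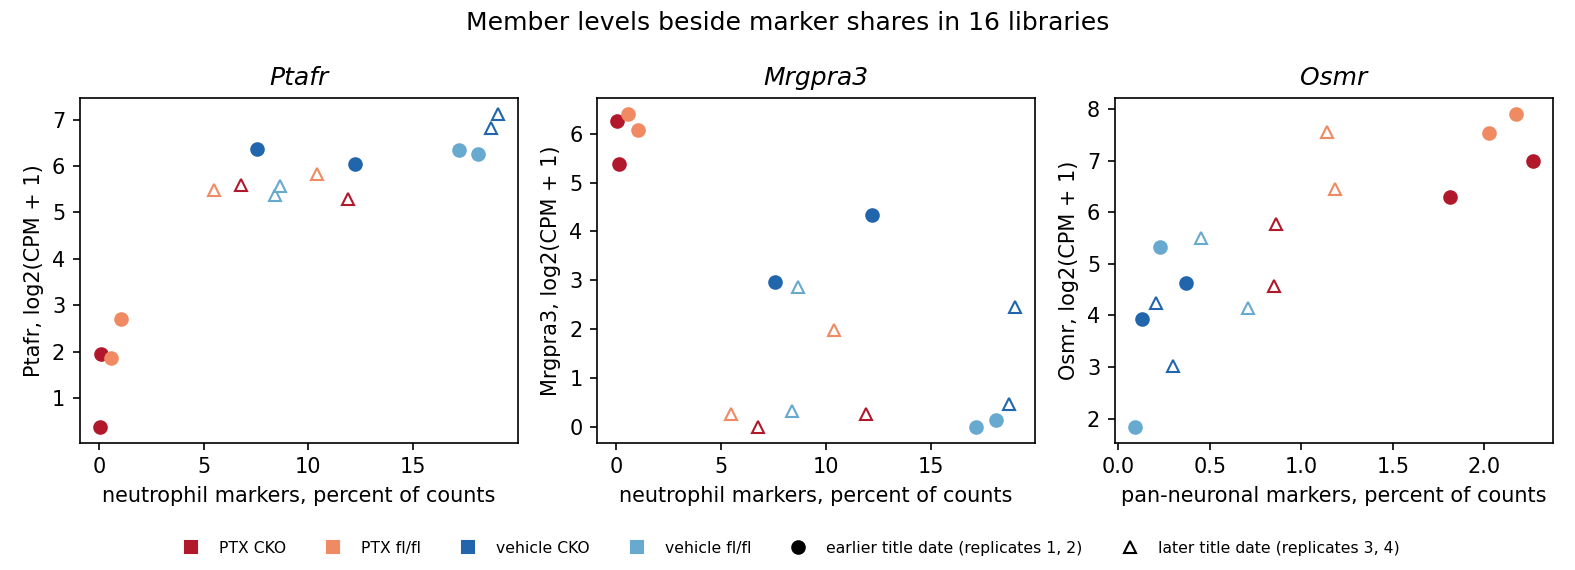
Member levels, log2(CPM + 1), against the percent of counts from marker lists in the 16 libraries, coloured by group, filled for the earlier and open for the later date. Ptafr is low in the PTX libraries with few neutrophil markers, and Osmr is high in the libraries with many pan-neuronal markers.

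Other genes of itch neurons and of the members' pathways were counted from lists chosen with earlier results of these data known. Under PTX no gene of any of the 8 lists was called between the genotypes. Of the 18 tested among other itch neuron genes, 5 had a fold change above 0, with a median log2 value of -0.45. The smallest p belonged to the peptides Sst and Nppb and to Il31ra, the partner of Osmr. Sst stood at 0, 0.380, 0 and 0 CPM in PTX CKO, against 8.97, 1.49, 6.33 and 7.82 CPM in PTX fl/fl, a log2 fold change of -5.82 ± 1.97 (edgeR adjusted p = 1). Nppb stood at 1.38, 1.42, 1.34 and 0 CPM in PTX CKO, against 25.5, 5.01, 29.6 and 6.70 CPM in PTX fl/fl, a log2 fold change of -3.99 ± 1.89 (edgeR adjusted p = 1). The groups did not overlap for either peptide, as for 1.37% of all genes that were lower in PTX CKO. Il31ra stood at 12.6, 5.31, 3.61 and 0.835 CPM in PTX CKO, against 49.7, 13.4, 90.6 and 0 CPM in PTX fl/fl. As with Npy2r, 3 PTX fl/fl libraries of Il31ra were the highest of all and replicate 4 was at 0 (log2 fold change -2.78 ± 1.61, edgeR adjusted p = 1).

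Among 22 tested genes of cytokine receptors and JAK-STAT signalling, 11 had a fold change above 0 between the genotypes under PTX. Il6st, the shared chain for oncostatin M, averaged 144 CPM in PTX CKO and 146 CPM in PTX fl/fl (log2 fold change -0.02 ± 0.40). Il13ra1, a receptor chain for interleukin-13, averaged 73.6 CPM in PTX CKO and 22.4 CPM in PTX fl/fl (1.72 ± 0.96), and Il2rg had a log2 fold change of -0.89 ± 0.78. Among 18 transduction genes 3 were above 0, with a median of -0.29. The chloride channel gene Ano1 had the smallest p of these, at 3.64, 0.380, 8.46 and 47.8 CPM in PTX CKO against 0.830, 1.32, 0 and 0 CPM in PTX fl/fl (log2 fold change 4.76 ± 1.74, edgeR adjusted p = 1), and its groups overlapped. The other lists held 10 serotonin receptors (3 above 0), 4 histamine genes (2), 2 protease-activated receptors (1), 19 lipid mediator genes (7) and 3 genes of the neuropeptide Y system (1). The smallest p among them was that of Dpp4, a peptidase that cleaves neuropeptide Y, with 1, 0, 0 and 0 counts in PTX CKO and 3, 0, 0 and 157 counts in PTX fl/fl (edgeR adjusted p = 1), so a single library held nearly all of them.

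Under vehicle the same genotype comparison called 0 members, while 3 genes (0.0211%) were called in the whole table. At an unadjusted p under 0.05 edgeR counted 2 members, Cysltr2 and Hrh1, beside 655 genes (4.61%). DESeq2 counted 2 members beside 828 genes, and limma-voom 0 members beside 730 genes. After adjustment DESeq2 and limma-voom called 0 members. Of the 9 fold changes 5 were above 0, with a median of 0.71, and the groups overlapped for all 9, beside 2.49% of genes whose groups did not overlap. Cysltr2 stood at 15.3, 0, 6.39 and 0 CPM in vehicle CKO, against 0, 0, 0.0824 and 0 CPM in vehicle fl/fl, which is 186 counts against 1 count. The ratio of CPM-scaled counts was 220, with a 95% interval of 39.0 to 8742 for counting error only, and 2 of the 4 vehicle CKO libraries were themselves at 0. Hrh1 rested on a single library, with 0, 17.2, 0 and 0 CPM in vehicle CKO and 0, 0, 0.0824 and 0 CPM in vehicle fl/fl, and without that library its log2 fold change turned to -1.51. F2rl3 likewise had its 54 counts in vehicle CKO in replicate 4 alone, at 5.63 CPM, against 3 counts in vehicle fl/fl, and its fold change turned to -2.70 without it.

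For the other 6 members the genotype difference under vehicle was not called either. Osmr stood at 23.8, 14.2, 17.9 and 7.09 CPM in vehicle CKO, against 39.0, 2.58, 44.0 and 16.6 CPM in vehicle fl/fl (log2 fold change -0.70 ± 0.65, edgeR adjusted p = 1). The vehicle fl/fl libraries held both the lowest and the highest values of Osmr. Per 1000 CPM of pan-neuronal markers the groups also overlapped, at 6.80, 10.8, 7.38 and 1.97 CPM in vehicle CKO and 14.9, 2.47, 10.4 and 2.55 CPM in vehicle fl/fl (log2 difference -0.02, exact permutation p = 1). Ptafr stood at 80.9, 64.5, 112 and 139 CPM in vehicle CKO, against 75.7, 79.9, 40.7 and 46.3 CPM in vehicle fl/fl (0.71 ± 1.03, edgeR adjusted p = 1). Jak1 averaged 232 ± 68.9 CPM in vehicle CKO and 236 ± 79.8 CPM in vehicle fl/fl (SD, n = 4 each). Mrgpra3 averaged 7.71 ± 8.07 CPM in vehicle CKO and 1.67 ± 3.10 CPM in vehicle fl/fl, Htr1f 1.23 ± 0.95 and 1.43 ± 1.07 CPM, and Npy2r 0.220 ± 0.373 and 1.77 ± 3.48 CPM. The log2 fold changes were 2.19 ± 1.94 for Mrgpra3, -0.21 ± 1.56 for Htr1f and -2.93 ± 1.85 for Npy2r (edgeR adjusted p = 1 for each). That of Mrgpra3 was 5.80 and that of Npy2r 2.41 without replicate 4 of vehicle fl/fl.

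Whether the genotype difference itself differed between PTX and vehicle was tested as an interaction. No member passed, and 1 gene (0.00704%) passed in the whole table. At an unadjusted p under 0.05 edgeR counted 1 member beside 475 genes (3.35%), and DESeq2 1 member beside 621 genes. Limma-voom counted 0 members beside 876 genes. The adjusted count of members was 0 by DESeq2 and limma-voom too. Osmr had an interaction log2 value of -0.61 ± 0.92 (edgeR adjusted p = 1). The member with an unadjusted edgeR p under 0.05 was Cysltr2 (-8.99 ± 3.00, edgeR adjusted p = 1), whose vehicle fl/fl group held a single count.

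Osmr was the member that edgeR called as higher with PTX in fl/fl mice. The PTX fl/fl libraries given above, at 86.6 to 239 CPM, all lay above the vehicle fl/fl libraries at 2.58 to 44.0 CPM, with means of 173.9 ± 63.7 CPM and 25.5 ± 19.4 CPM (SD, n = 4 each). The log2 fold change was 2.77 ± 0.69 (edgeR adjusted p = 0.0305), and the exact permutation p was 0.0286, the smallest possible. Groups without overlap were seen for 18.8% of all genes. Osmr was the 1 member of 9 called, beside 704 of all genes (4.96%), of which 454 were higher after PTX (3.2%). DESeq2 called Osmr and Cysltr2, beside 1517 of the 14200 genes. Limma-voom called Osmr, Cysltr2, Npy2r, F2rl3 and Hrh1 as higher and Ptafr as lower, beside 5279 of the 14200 genes. The call did not hold when PTX fl/fl replicate 1, 2 or 3 was left out (adjusted p = 0.098, 0.0762 and 0.0512) or when vehicle fl/fl replicate 1 or 4 was (0.0617 and 0.0704), without the earlier PTX date (0.351), with the compared groups alone (0.0794) and with the neuronal markers as a covariate (0.998). The 16 pan-neuronal markers also had higher fold changes after PTX, with 11 of 16 called, and Scn10a rose by 3.17 ± 0.70 on the log2 scale (adjusted p = 0.0167). Per 1000 CPM of pan-neuronal markers, the difference of Osmr between PTX fl/fl and vehicle fl/fl was 0.81 on the log2 scale (exact permutation p = 0.314). Per CPM of Scn10a it was -0.29 (exact permutation p = 0.857). Both had 1 added to the CPM of Osmr before dividing, unlike the ratios printed for single libraries.

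In CKO mice Osmr stood at 22.8 to 126 CPM after PTX and at 7.09 to 23.8 CPM after vehicle, and the groups overlapped by 1 library on each side. In the fit the log2 fold change was 2.15 ± 0.68 (edgeR adjusted p = 0.0936, exact permutation p = 0.0571). With edgeR 0 members were called in this comparison, beside 366 genes (2.58%), and 2 members had an unadjusted p under 0.05, as did 19.7% of all genes. DESeq2 called 2 members, Osmr (adjusted p = 0.0271) and Npy2r (0.0204), beside 1341 of the 14200 genes. Limma-voom called 2, Osmr (0.0416) and Ptafr (0.00626), beside 2695 of the 14200 genes. The difference per 1000 CPM of pan-neuronal markers was -0.33 (exact permutation p = 0.571). In order of falling mean, the groups of Osmr were PTX fl/fl, PTX CKO, vehicle fl/fl and vehicle CKO, and each neighbouring pair in this order overlapped. The PTX comparisons of fl/fl and of CKO share no library.

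**Figure D4:**
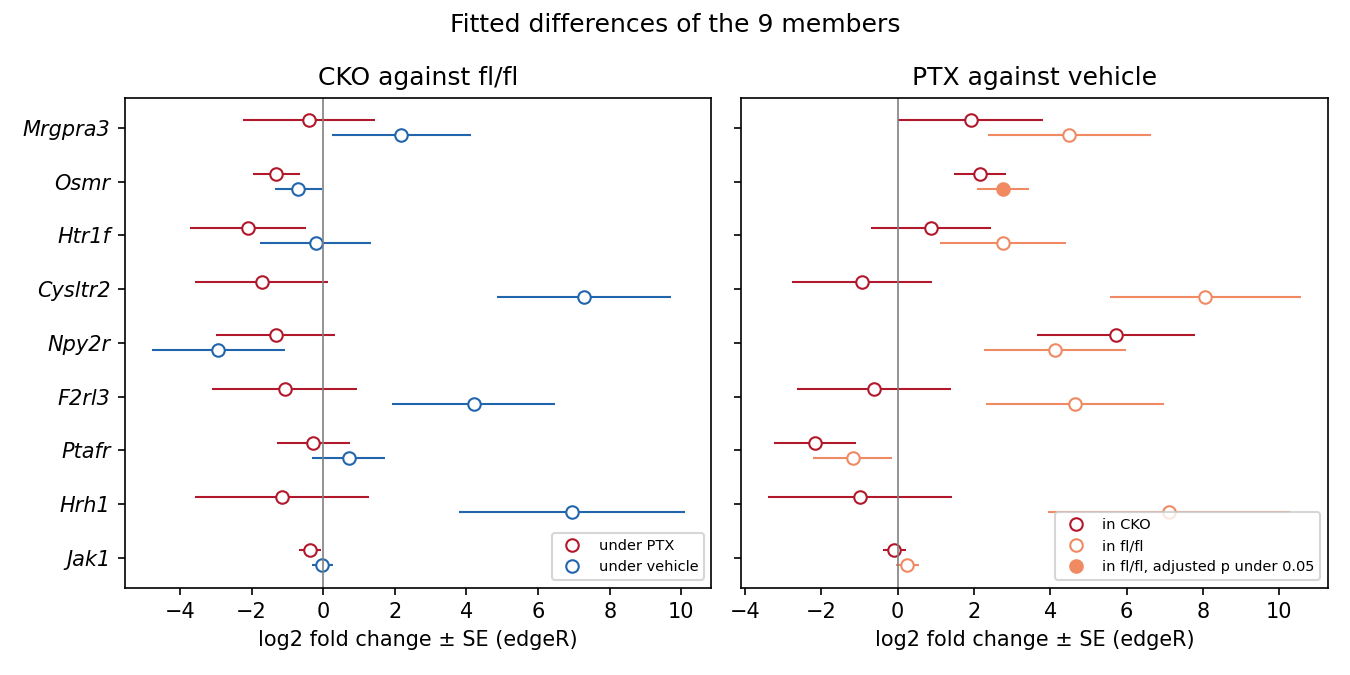
Log2 fold changes of the 9 members with their standard errors, from the fit over all 16 libraries, by comparison. All 9 values lie below 0 for PTX CKO over PTX fl/fl; for PTX over vehicle Osmr lies above 0 in both genotypes, and the wide bars belong to the scarce receptors.

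Among the scarcer receptors, Npy2r and Cysltr2 had groups that did not overlap in 1 of the PTX comparisons each. Npy2r stood at 6.91 to 20.4 CPM in PTX CKO and at 0, 0.775, 0 and 0.104 CPM in vehicle CKO. All 4 PTX CKO libraries lay above the vehicle CKO libraries, as for 8.91% of all genes, and the log2 fold change was 5.73 ± 2.06 (edgeR adjusted p = 0.139). In fl/fl mice the library at 0 after PTX lay among the vehicle libraries, at 0, 0, 0.0824 and 6.98 CPM (4.12 ± 1.87, edgeR adjusted p = 0.232). Without replicate 4 of vehicle fl/fl, the library at 6.98 CPM, it was called (9.47, adjusted p = 0.0324), and limma-voom called it with all libraries (0.0337). Cysltr2 had 414 counts in PTX fl/fl and 1 count in vehicle fl/fl, a scaled ratio of 402 (95% counting interval 71.8 to 15936). The lowest PTX fl/fl library, at 0.102 CPM, lay only just above the highest vehicle fl/fl library, at 0.0824 CPM, each of them a single count. In this comparison 11% of all genes were higher after PTX without overlap. The fitted log2 fold change had an edgeR adjusted p of 0.0773, while it was called without the later PTX date (0.0412), by DESeq2 (0.00284) and by limma-voom (0.00454). In CKO mice Cysltr2 was -0.93 ± 1.82 (PTX over vehicle), with overlap.

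Ptafr had fold changes below 0 after PTX. Its PTX CKO libraries, at 0.295 to 47.4 CPM, all lay below the vehicle CKO libraries, at 64.5 to 139 CPM, as for 4.54% of all genes that were lower after PTX. PTX over vehicle gave a log2 fold change of -2.16 ± 1.07 in CKO (edgeR adjusted p = 0.276) and -1.18 ± 1.04 in fl/fl (0.583). The value was -5.96 (adjusted p = 0.000999) in CKO and -3.88 (0.00849) in fl/fl when the later PTX date was left out, whose libraries had the higher neutrophil shares. Jak1 differed by -0.08 ± 0.30 in CKO and 0.26 ± 0.30 in fl/fl, and its libraries overlapped in both. Mrgpra3 had a log2 fold change of 1.92 ± 1.90 in CKO and 4.50 ± 2.13 in fl/fl (edgeR adjusted p = 0.619 and 0.259). In fl/fl it was called (adjusted p = 0.0374) when the later PTX date was left out, and it stood at -0.14 without the earlier one. Htr1f had 0.88 ± 1.57 in CKO and 2.77 ± 1.65 in fl/fl, with overlap in both.

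Several other genes of the itch lists rose with PTX, as did the neuronal markers. With those markers as a covariate, 0 genes of the whole table were called in fl/fl and 1 in CKO, against 704 and 366 in the main fit. Without the earlier PTX date 4 genes were called in fl/fl and 0 in CKO. The neuronal share and the treatment moved together, so their parts in the values below cannot be told apart. Of 18 other itch neuron genes, 3 rose and none fell in fl/fl, beside 3.2% of all genes that rose and 1.76% that fell: Plxnc1, a semaphorin receptor (1.45 ± 0.34 on the log2 scale, edgeR adjusted p = 0.0215), the peptide gene Nmb (2.36 ± 0.55, 0.0215) and Sst. Sst had 264 counts in PTX fl/fl and 0 counts in vehicle fl/fl (edgeR adjusted p = 0.0368). That is at least 85.6-fold higher with 3 counts set as the group's floor, a bound for counting error only. In CKO mice 1 of the 18 rose, beside 2.22% of all genes, Nmb (2.67 ± 0.56, 0.0206), and Sst had 4 counts after PTX and 1 count after vehicle. Of 22 cytokine receptor and JAK-STAT genes 2 rose in fl/fl, beside the same 3.2%, Lifr, a receptor subunit for leukaemia inhibitory factor (2.07 ± 0.36, 0.00732), and the transcription factor gene Stat3 (1.00 ± 0.24, 0.0246). None of the 22 was called in CKO, where Lifr had 1.33 ± 0.35 (0.0536). The median of this list was below 0 in both, at -0.52 in CKO and -0.77 in fl/fl.

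Of 18 transduction genes 6 rose in fl/fl, beside 3.2% of all genes, among them the heat and capsaicin channel gene Trpv1 (2.79 ± 0.58, edgeR adjusted p = 0.0131), the G protein gene Gnao1 (2.72 ± 0.58, 0.0146) and Scn10a. In CKO 2 rose, beside 2.22%, Gnao1 (2.63 ± 0.58, 0.0259) and Scn10a (2.89 ± 0.69, 0.0346). F2rl2, a protease-activated receptor related to F2rl3, rose in both, by 2.61 ± 0.56 in CKO (0.0229) and 2.95 ± 0.56 in fl/fl (0.0096). Of 10 other serotonin receptors 1 rose in fl/fl, beside 3.2% of all genes, Htr4 (6.75 ± 1.86, 0.0459). In CKO 2 of the 10 rose, beside 2.22%, Htr1a and Htr1d, given here as group totals that do not show the spread over libraries. Htr1a had 542 counts in PTX CKO and 0 in vehicle CKO (edgeR adjusted p = 0.042). That is at least 165-fold higher with the same floor, a bound for counting error only. Htr1d had 441 counts in PTX CKO and 1 count in vehicle CKO (edgeR adjusted p = 0.0327). No histamine, lipid mediator or neuropeptide Y gene of the lists was called in either genotype. The medians over all 14200 genes were 0.02 (log2) in CKO and -0.01 in fl/fl.

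Across the 16 libraries the members did not move as 1 group. The highest Pearson correlation of log2(CPM + 1) between members was 0.71, of Mrgpra3 with Hrh1, followed by 0.67 of Osmr with Npy2r. Ptafr had negative values with 7 of the other 8 members, down to -0.78 with Mrgpra3. These points share depth, date and the shares of neurons and blood cells, so the values describe the libraries only. Of the genes with a mean of at least 5 CPM, those most like Osmr were Spryd3 (0.93), Lxn (0.92) and Syn1 (0.92), the last a synaptic vesicle gene. Those most like Ptafr were Btg2 (0.99), Siglece (0.99) and 4930523C07Rik (0.99). For Mrgpra3 they were Wbp5 (0.89), Higd1a (0.88) and Tex264 (0.87), for Htr1f Bmp15 (0.79), AW551984 (0.76) and Fam55b (0.74), and for Jak1 Ralgapa1 (0.76), Ssb (0.76) and Capzb (0.76), each over 16 libraries. Cysltr2, Npy2r, F2rl3 and Hrh1 had counts in fewer than 12 libraries and were not compared in this way.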

How the data were processed

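The submitters' processing notes name bcl2fastq, TopHat2 and HTSeq, without versions, and the build mm9. The files hold raw counts, as deposited by the authors, with no normalization. The 16 files hold 22609 genes each and 5 HTSeq summary lines, which were left out, with 32.9% to 43.5% of counted alignments assigned to genes. No 2 libraries of a group were alike within counting error.

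Counts were filtered with filterByExpr (14200 genes) and TMM scaling, then tested two-sided in edgeR 4.0.16 under R 4.3.3 (robust quasi-likelihood F test, 16 libraries, 12 residual degrees of freedom). Adjustment was by Benjamini-Hochberg across all genes, with a threshold of 0.05. Standard errors come from the fold change and its F statistic. Single values were compared by exact permutation of mean log2(CPM + 1). For log2 differences per neuronal markers or per Scn10a, 1 was added to the CPM of the member before dividing. The printed ratios have nothing added. The 9 members and all gene lists were chosen with earlier results of these data known. All members are named, and of each pathway list the genes with the smallest p and those called are given in part. Trials were RLE scaling, no filter, a replicate block, single dates, compared groups alone, a neuronal covariate, limma-voom (limma 3.58.1), DESeq2 1.42.0 and leaving out each library. Setting Osmr against neuronal markers was added after seeing the data. Same-numbered deviations of the PTX libraries correlated across genotypes at 0.37, 0.40, 0.39 and 0.22, with date differences left in. For numbers 3 and 4 the same number was the best match in both directions, for numbers 1 and 2 in 1 direction only. Libraries of the same number share a date, and a pairing by number beyond the date was not tested. The steps were tested on simulated data. Promoter sequences are those of RefSeq (GRCm38.p6), and shared stretches were counted in GENCODE M21 transcripts. Intervals cover counting error only.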

Additional observations from a re-analysis of the deposited data

Results flagged for a closer look

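In 9 of 36 groups of 4 libraries, 1 library stood far from the other 3 by Dixon's test at the 95% level. Chance gives about 1 in 20 only for values with a normal spread. Whether these CPM values have such a spread was not tested, so 9 of 36 cannot be read as an excess. In 4 of the 9 the other 3 libraries were at 0, so that any count, even a single one, meets the test and the chance rate does not apply. All 9 are high values of scarce receptors. In vehicle fl/fl, Mrgpra3 stood at 6.32 CPM and Npy2r at 6.98 CPM in replicate 4, beside at most 0.247 and 0.0824 CPM in the others. Also in vehicle fl/fl, Cysltr2 and Hrh1 stood at 0.0824 CPM each in replicate 3, a single count beside 0 in the others. In vehicle CKO, Npy2r stood at 0.775 CPM and Hrh1 at 17.2 CPM in replicate 2, and F2rl3 at 5.63 CPM in replicate 4, the last 2 beside 0 in the others. In PTX CKO, Htr1f stood at 7.73 CPM in replicate 3, beside at most 0.886 CPM, and Hrh1 at 8.54 CPM in replicate 2, beside at most 0.103 CPM.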

How the results depend on the processing

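The count of members called by genotype stayed at 0 under both treatments and for the interaction under every alternative fit. Per pan-neuronal markers, a scale chosen after seeing the data, Osmr differed by -1.16 (log2) by genotype under PTX. The exact permutation p was 0.0286, the smallest possible, and per Scn10a it was 0.0857. Neither p was adjusted for the other members, scales and comparisons. For PTX against vehicle in fl/fl the count of members was 1. It was 0 without the earlier PTX date, with the compared groups alone and with the neuronal covariate. It was 2 with DESeq2, 4 without the later PTX date (beside 1969 genes) and 6 with limma-voom. When a library was left out it was 0 to 1. Without replicate 4 of vehicle fl/fl the member called was Npy2r (edgeR adjusted p = 0.0324) and not Osmr (0.0704). In CKO the count of members was 0, and 2 with DESeq2, with limma-voom and without the later PTX date (beside 2121 genes). A replicate block changed no count of members: it gave 0 in both genotype comparisons, 1 in fl/fl and 0 in CKO. Same-numbered deviations correlated at -0.03 to 0.03 across genotypes under vehicle, -0.18 to -0.14 across treatments in fl/fl and -0.04 to 0.08 in CKO. Across treatments in CKO, number 1 was its own best match in both directions and the other numbers in none. No further test of a pairing by number was made there. Over all genes, the alternatives gave 0 to 10 calls by genotype under PTX, 0 to 83 under vehicle, 0 to 5279 for PTX in fl/fl, 0 to 2695 for PTX in CKO and 0 to 50 for the interaction.

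Fold changes that turned sign are given here on the log2 scale, and the cause was not tested. For CKO over fl/fl under PTX, Hrh1 was 2.32 on the later date alone and Mrgpra3 was 0.24 with the neuronal covariate. Under vehicle, Jak1 was 0.024 with RLE scaling and with DESeq2, 0.10 with limma-voom and 0.71 on the later date, where Mrgpra3 was -0.40 and Hrh1 -2.13, while on the earlier date Htr1f was 0.67, Npy2r 4.84 and Ptafr -0.10. For PTX over vehicle in fl/fl, Mrgpra3 was -0.14 and Hrh1 -1.44 without the earlier PTX date, Ptafr was 0.86 with the covariate and Osmr -0.29 per Scn10a. In CKO, the replicate block gave -0.48 for Htr1f, 1.61 for Cysltr2 and 2.16 for F2rl3. Limma-voom gave 1.52 for Cysltr2, 1.69 for F2rl3 and 1.13 for Hrh1. Without the earlier PTX date Mrgpra3 was -6.04 and Jak1 0.021, without the later one Htr1f was -0.85, and with the covariate Mrgpra3 was -5.62 and Jak1 0.39. Osmr was -0.33 per pan-neuronal markers and -0.85 per Scn10a.

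Leaving out each library in turn gave the following log2 ranges where a sign turned. By genotype under PTX, Mrgpra3 ranged between -1.49 and 0.34 and Ptafr between -0.97 and 0.36. Under vehicle, Htr1f ranged between -0.70 and 0.20, Npy2r between -5.21 and 2.41, F2rl3 between -2.70 and 5.06, Hrh1 between -1.51 and 8.40, and Jak1 between -0.24 and 0.20. For PTX over vehicle in CKO, Htr1f ranged between -1.41 and 1.33, Cysltr2 between -1.44 and 0.41, F2rl3 between -1.18 and 6.18, Hrh1 between -6.50 and 7.36, and Jak1 between -0.22 and 0.13. For the interaction, Npy2r ranged between -3.74 and 3.89, F2rl3 between -6.13 and 1.63, and Hrh1 between -13.6 and 0.37.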
